A study of Mus musculus with 4 samples.

Results

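*Rgs1*, *Rgs2*, *Rgs10* and *Rgs16* belong to the regulator of G protein signalling (RGS) family. They were taken by symbol from both tables of transcript counts and are 4 of the 32285 genes in each. The members were selected on measured values: *Rgs10* was chosen by its low UMI level in the library labelled dKO relative to the library labelled WT, and the others were listed with earlier results in view, so their ratios between these libraries are descriptions and carry no test. Hepatic CD4+ T cells were sorted by flow cytometry from mice with diet-induced steatohepatitis, and droplet-based RNA sequencing was run from the 5′ end together with sequencing of the T cell receptor. The WT group has no further detail of its genotype in the labels. The dKO group is Nr4a1 fl/fl Nr4a2 fl/fl Cd4-Cre, in which the Cd4 promoter drives Cre, so that the floxed genes are deleted in T cells. Both groups were male and received for 8 weeks the same choline-deficient, high-fat diet with 60 kcal% fat and 0.1% methionine. Their age is not given in the sources used here. Each genotype is 1 library pooled from 2 mice whose cells cannot be told apart. Genotype, mouse and library therefore cannot be told apart either, no difference between the libraries has a replicate error, and every interval below is a 95% interval that covers counting error only.

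RGS proteins switch off signalling from G protein-coupled receptors. A ligand-bound receptor loads the G alpha subunit with GTP, and the RGS domain speeds the hydrolysis of that GTP, so that the subunits reassemble and the signal ends. In leukocytes this sets how long a cell answers chemokines and lipid mediators. Rgs1 acts on G alpha i and dampens chemokine receptor signalling in lymphocytes, Rgs2 is known for its preference for G alpha q, Rgs10 is a small member that acts on G alpha i, and Rgs16 acts on both classes and is induced in activated T cells.

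All members have 5 exons and lie on GRCm38 in GENCODE M21 as follows. *Rgs2* (ENSMUSG00000026360) is at chr1:143999338-144004161 on the minus strand, and *Rgs1* (ENSMUSG00000026358) is at chr1:144242296-144249242 on the same strand, 238134 bases away with *Rgs13* between them. *Rgs16* (ENSMUSG00000026475) is at chr1:153740349-153745468 on the plus strand, 9491106 bases beyond *Rgs1*, where it overlaps *Gm28513* on the opposite strand. *Rgs10* (ENSMUSG00000030844) is at chr7:128373621-128418758 on the minus strand and overlaps *Gm15503* on its own strand, so reads of that gene could not be told apart with certainty. Of the 21 listed RGS genes, 11 are on chromosome 1. The 250 bases before the start site are printed for the 3 members matched in RefSeq (GRCm38.p6), because *Rgs10* and *Rgs16* had the widest and opposite ratios between the libraries and *Rgs2* the narrowest over all T cells. Capitals mark TGACG, the core of the cyclic AMP response element, and CCAAT, each on either strand. The windows are chr7:128418173-128418422 (minus strand) for *Rgs10*, chr1:153740103-153740352 (plus strand) for *Rgs16* and chr1:144004150-144004399 (minus strand) for *Rgs2*, each read 5′ to 3′. Start sites are those of RefSeq and differ from the GENCODE gene ends above, so that the *Rgs10* window lies inside the printed gene and the others overlap theirs by a few bases.
Rgs10: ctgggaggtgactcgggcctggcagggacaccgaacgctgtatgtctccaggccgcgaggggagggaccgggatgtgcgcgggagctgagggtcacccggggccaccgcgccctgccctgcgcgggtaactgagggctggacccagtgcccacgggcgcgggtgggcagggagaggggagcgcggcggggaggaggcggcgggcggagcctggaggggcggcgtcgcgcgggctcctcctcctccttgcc
Rgs16: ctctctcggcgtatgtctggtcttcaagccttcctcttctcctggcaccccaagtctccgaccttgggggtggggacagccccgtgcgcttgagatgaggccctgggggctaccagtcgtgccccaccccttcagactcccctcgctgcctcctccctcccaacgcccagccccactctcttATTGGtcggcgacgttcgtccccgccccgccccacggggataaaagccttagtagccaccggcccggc
Rgs2: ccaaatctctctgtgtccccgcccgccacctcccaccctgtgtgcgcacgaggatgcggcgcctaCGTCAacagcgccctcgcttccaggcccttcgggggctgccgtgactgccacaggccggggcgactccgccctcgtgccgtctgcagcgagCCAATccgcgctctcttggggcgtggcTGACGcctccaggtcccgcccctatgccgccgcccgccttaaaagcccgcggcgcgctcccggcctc
The windows were rich in G and C, with 76.4% in *Rgs10*, 66.4% in *Rgs16* and 72.4% in *Rgs2*, against a median of 52.4% and quartiles of 45.2% and 61.2% over 32851 RefSeq windows of the same length. AAAGGTCA, the letters that Nr4a receptors bind as monomers, matched none of the 3 windows on either strand and 1.34% of all windows. TGACG matched 2 times in *Rgs2* and in 17.8% of all windows. CCAAT matched once in *Rgs2* and once in *Rgs16*, with 33.8% of all windows holding it. GGGCGG, left in lower case, matched 4 times in *Rgs2*, 2 times in *Rgs16* and 2 times in *Rgs10*, and in 32.7% of all windows. TGACGTCA, which contains TGACG, and TGANTCA and TATAAA had no match in the 3 windows and matched 1.55%, 6.75% and 12.4% of all windows. A match is a run of letters and says nothing of binding, and these data hold no measurement at the promoters.

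After filtering, the libraries labelled WT and dKO held 10556 and 17462 cells with 23437516 and 37794986 unique molecular identifiers (UMIs), and a median of 1679 and 1685 UMIs per cell. The targeted genes went against the labels. In cells gated as T cells, *Nr4a1* was at 734 UMIs per 1000000 UMIs of the class (CPM) in the library labelled WT against 1920 CPM in the library labelled dKO, and *Nr4a2* was at 204 and 442 CPM. UMIs are summed per gene and not per exon, so RNA from a deleted allele cannot be told from intact RNA, and the libraries are named by their labels throughout. Of the cells, 63.7% and 63.2% passed the T cell gate of at least 2 *Cd3d*, *Cd3e* and *Cd3g* UMIs. *Cd4* itself was at 257 and 876 CPM in them, and the summed CD8 genes were at 7.28 and 16.1 CPM. A further 14.4% and 21.9% of cells carried plasmacytoid dendritic cell (pDC) genes without a T cell receptor, although the sort was for CD4+ T cells. The higher level of *Nr4a1* in the library labelled dKO was not limited to T cells. In these pDC-like cells *Nr4a1* was at 612 and 1334 CPM and *Nr4a2* at 45.3 and 77.0 CPM. In other myeloid-like cells *Nr4a1* was at 740 and 794 CPM, a ratio whose interval allows equal levels. The libraries shared 242 cell barcodes, 2.29% and 1.39% of their cells. All classes below are gates on UMIs of fixed marker genes and not an annotation by the authors. The T cell gates were exclusive and applied in order. Low-ribosomal droplets, with under 7% ribosomal protein UMIs, and cycling cells, with at least 3 UMIs of a cycling list, were set apart first. A Treg here is a remaining T cell with a *Foxp3* UMI. *Foxp3* was also at 56.7 and 145 CPM in cycling T cells, so Tregs are not all T cells with *Foxp3*. Ifng and Il17 cells were gated next. A Treg-associated cell is in none of these classes and has at least 4 UMIs of *Ctla4*, *Ikzf2*, *Il2ra* and *Tnfrsf4*. Ifng and Il17 cells carry the cytokine transcript. Naive-like cells carry at least 3 UMIs of a naive list that includes *Ccr7*, *Lef1*, *Dapl1*, *S1pr1* and *Tcf7*, and other T cells met none of these gates.

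Over all T cells, *Rgs10* was lower and *Rgs16* higher in the library labelled dKO, *Rgs1* was somewhat lower and *Rgs2* somewhat higher. *Rgs1* was the most abundant by UMIs, at 1258 CPM in the library labelled WT against 930 in the library labelled dKO. *Rgs2* was at 214 and 280 CPM, *Rgs10* at 188 and 49.8, and *Rgs16* at 47.5 and 277. The 5′ kit counts 1 end of each transcript, so these CPM are not divided by gene length. A change of 2-fold or more was counted among the 8308 genes with at least 10 CPM in 1 of the libraries. By that count 1 member was lower, where 2.86% of all genes were, and 1 was higher, where 3.82% of all genes were. In Tregs 1 was lower and 1 higher as well, against 4.92% and 4.27% of 8356 genes, and in pDC-like cells 1 was lower and 1 higher, against 1.76% and 1.26% of 8123 genes. The members were chosen with these ratios known, so nothing is read from those counts. *Rgs10* was 3.79-fold lower (log2 ratio −1.92, −2.03 to −1.82), and 22 of the 8308 genes had a lower ratio. *Rgs16* was 5.83-fold higher (log2 ratio 2.54, 2.43 to 2.66), and 50 genes had a higher ratio. *Rgs1* and *Rgs2* stayed within 2-fold, with log2 ratios of −0.44 (−0.46 to −0.41) and 0.39 (0.32 to 0.45).

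**Figure D1:**
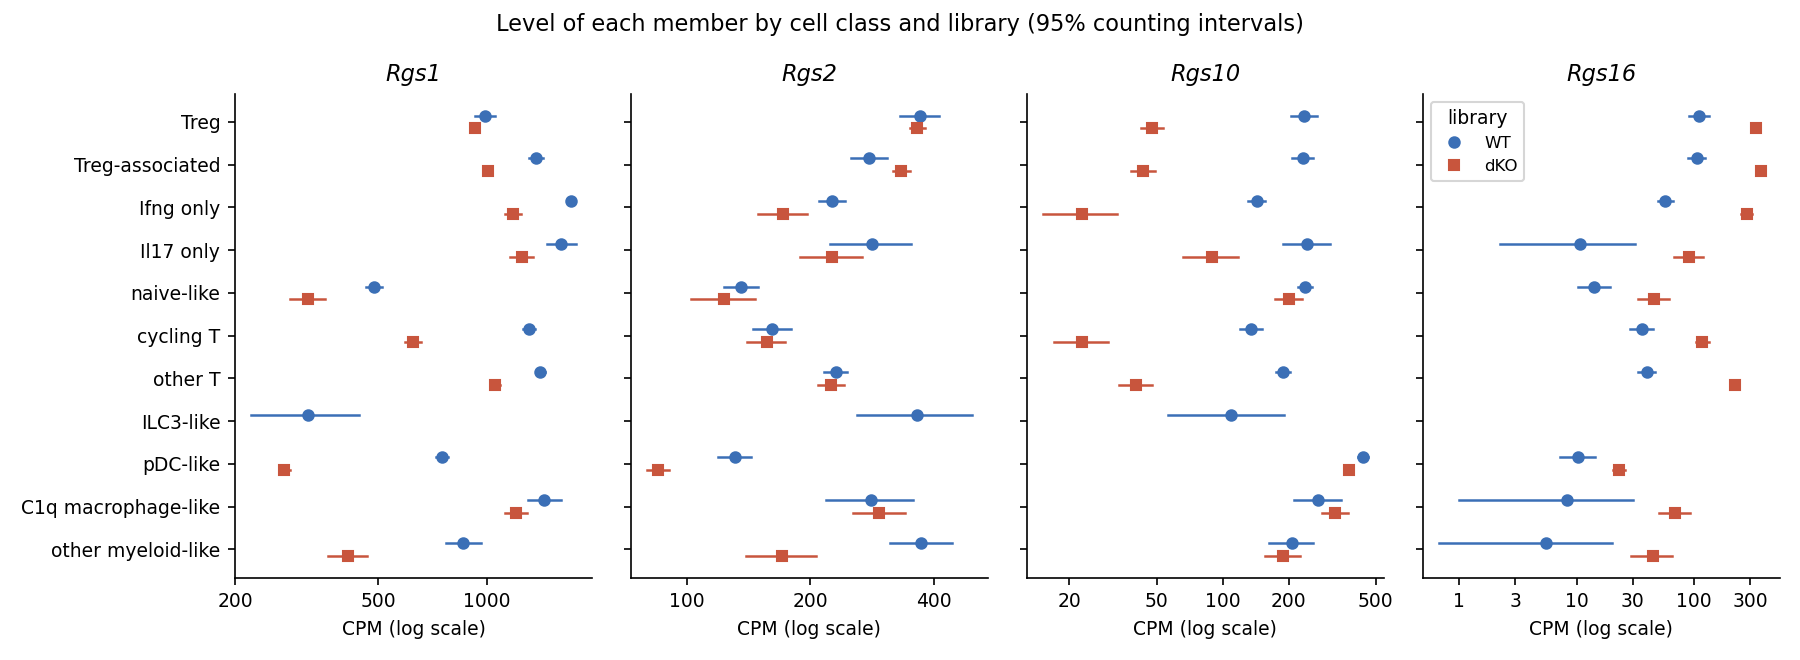
Level of each member in CPM (log scale, own axis for each gene) in each gated class. Points are the library labelled WT (circles) and the library labelled dKO (squares), and bars are 95% exact Poisson intervals. The class of low-ribosomal droplets, the ILC3-like cells of the library labelled dKO (28 cells) and *Rgs16* in the ILC3-like cells of the library labelled WT (0 UMIs) are not drawn. *Rgs10* was at 47.8 CPM in Tregs of the library labelled dKO and at 379 CPM in its pDC-like cells.

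*Rgs10*, which acts on G alpha i, was the member whose ratio varied most between the T cell classes. Tregs were at 236 CPM (205 to 270) in the library labelled WT against 47.8 CPM (42.3 to 53.8) in the library labelled dKO, a log2 ratio of −2.30 (−2.57 to −2.04). Treg-associated cells had 233 and 43.5 CPM (log2 ratio −2.42), and Ifng cells 143 and 22.8 CPM (log2 ratio −2.65). The intervals of the libraries lay apart in each of these classes. Cycling T cells had 135 and 22.8 CPM (log2 ratio −2.57) and other T cells 189 and 40.3 CPM (log2 ratio −2.23). Il17 cells had 243 and 89.1 CPM, with a log2 ratio of −1.45 (−2.00 to −0.90). Naive-like cells had 239 CPM (222 to 257) and 200.1 CPM (174 to 230), a log2 ratio of −0.26 (−0.49 to −0.03), the narrowest of the T cell classes. The droplets with few ribosomal protein transcripts had 144 CPM in the library labelled WT against 0 of 65686 UMIs in the library labelled dKO, where 3 UMIs would be 45.7 CPM.

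Within the library labelled WT, *Rgs10* hardly separated Tregs from naive-like cells, with a log2 ratio of −0.02 (−0.24 to 0.20). Within the library labelled dKO the same ratio was −2.07 (−2.33 to −1.80), with the naive-like cells 4.19-fold higher. Ifng cells were below naive-like cells in both libraries, with log2 ratios of −0.74 in the library labelled WT against −3.13 in the library labelled dKO. The order of the classes also differed. In the library labelled WT the pDC-like cells were highest and apart from the next class, while neighbours from C1q macrophage-like cells down to ILC3-like cells overlapped. In the library labelled dKO, pDC-like cells and C1q macrophage-like cells overlapped at the top, naive-like cells and other myeloid-like cells overlapped below them, and Il17 cells stood apart from both the classes above and the Tregs below.

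In the pDC-like and myeloid-like classes *Rgs10* was nearly level between the libraries. The pDC-like cells were at 437 CPM (415 to 459) in the library labelled WT against 379 CPM (368 to 390) in the library labelled dKO, a log2 ratio of −0.20 (−0.29 to −0.12). C1q macrophage-like cells had 273 and 325 CPM (log2 ratio 0.25, −0.15 to 0.67), and other myeloid-like cells had 207 and 189 CPM (log2 ratio −0.13, −0.57 to 0.31). Both of these intervals span 0. Over all filtered cells *Rgs10* was at 228 and 174 CPM with a log2 ratio of −0.39. That sum holds T cells and the other classes, and also the cells that entered no class.

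The shares of cells with an *Rgs10* UMI, after each cell was thinned to 1000 UMIs, followed the CPM. They were 16.8% of T cells in the library labelled WT (2039 of 6727, 30.3%, unthinned) and 4.72% in the library labelled dKO (812 of 11039, 7.36%, unthinned), and shallower cells left out of the thinning numbered 771 and 2196. Among Tregs the thinned shares were 21.2% and 4.62%, among Ifng cells 14.1% and 2.49%, and among naive-like cells 20.8% and 17.2%. No class in these libraries is known to lack *Rgs10*, so free RNA was gauged from genes of the pDC-like cells. *Siglech*, which marks pDCs, was at 7.15 CPM in T cells and 1997 CPM in pDC-like cells of the library labelled dKO, 0.358% of that level. The gate holds this value down, since cells with T cell transcripts and 3 or more UMIs of another lineage were not kept as T cells. With the cells set apart as mixed in that library counted in, *Siglech* was at 87.8 CPM, 4.4% of its pDC-like level. *Rgs10* in T cells of that library was 13.1% of its pDC-like level, and 17.3% with the mixed cells.

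**Figure D2:**
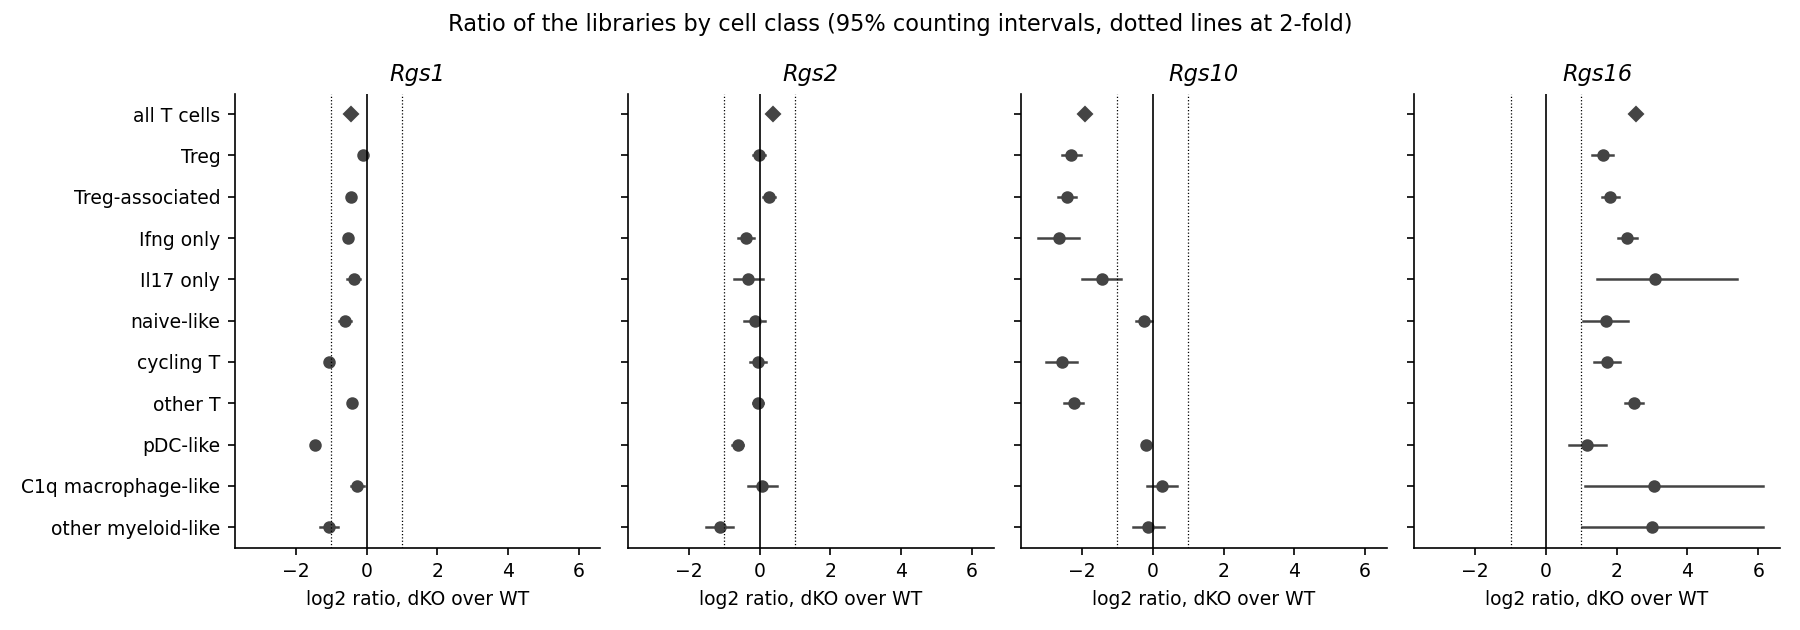
Log2 ratio of the library labelled dKO over the library labelled WT for each member (own panel) in each gated class, with 95% exact conditional binomial intervals, 0 marking equal levels. *Rgs10* lay at −2.30 in Tregs, −0.26 in naive-like cells and −0.20 in pDC-like cells, and *Rgs16* lay above 0 in each class drawn.

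T cells outside the cycling and low-ribosomal classes were also binned by UMIs per 1000 of the naive list, the genes that also set the naive-like gate. In the library labelled WT, *Rgs10* was at 174, 174, 204, 255 and 294 CPM from cells with none to cells with more than 4. In the library labelled dKO it was at 39.3, 44.3, 58.8, 160 and 306 CPM over the same bins. The libraries lay apart in the first 4 bins and overlapped in the last, which held 368 and 235 cells. *Rgs16* ran the other way, from 77.3 to 19.02 CPM in the library labelled WT and from 373 to 44.5 CPM in the library labelled dKO. *Rgs1* fell from 1660 to 238 CPM and from 1086 to 178 CPM, so its span within each library was wider than its difference between them. *Rgs2* fell from 274 to 134 CPM and from 336 to 122 CPM.

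**Figure D3:**
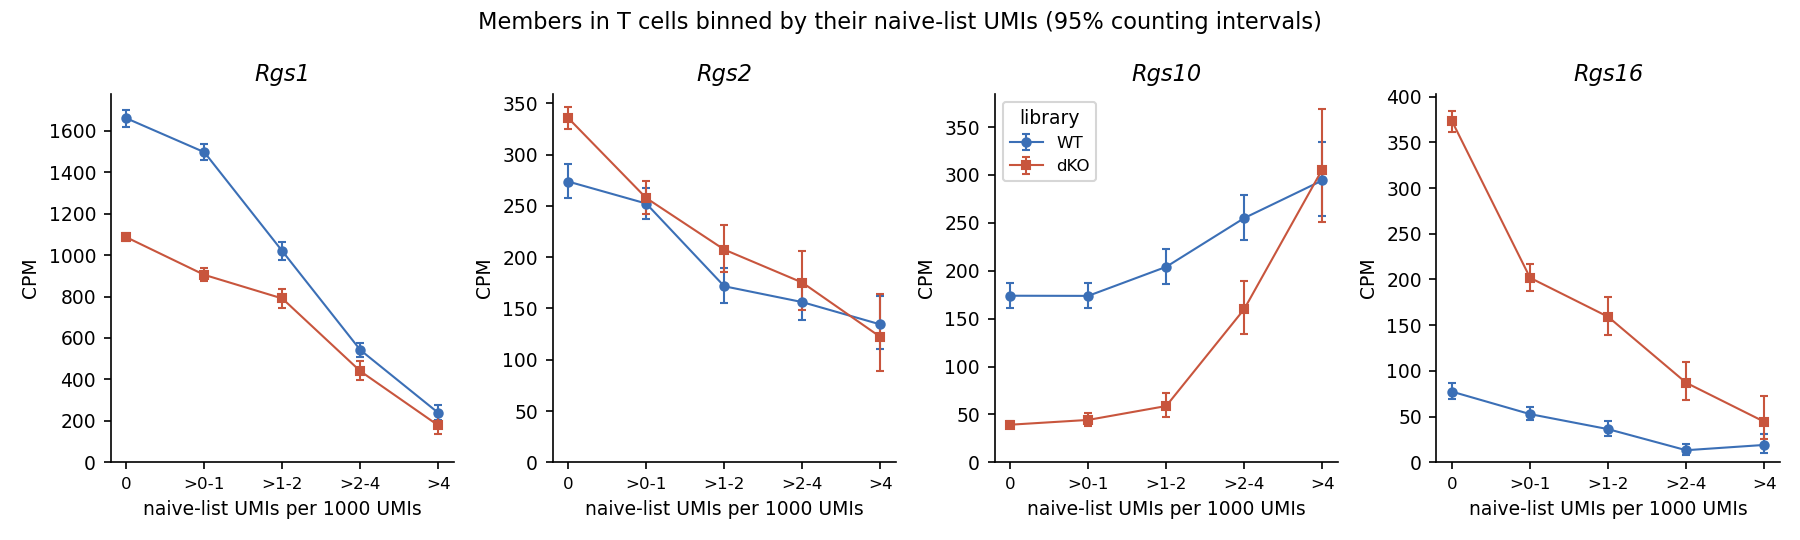
Level of each member in CPM in T cells binned by UMIs of the naive list per 1000 UMIs, with 95% exact Poisson intervals. Circles are the library labelled WT and squares the library labelled dKO. The libraries meet for *Rgs10* in the bin above 4, at 294 and 306 CPM, and lie apart in the bin with none, at 174 and 39.3 CPM.

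*Rgs16*, an activation-induced member, was higher in the library labelled dKO in every class with at least 50 cells in both libraries. Tregs had 111 CPM (90.3 to 135) and 336 CPM (322 to 352), a log2 ratio of 1.60 (1.31 to 1.90). Treg-associated cells had 106 and 373 CPM (log2 ratio 1.82), and Ifng cells 56.7 and 280 CPM (log2 ratio 2.30). The ratio of Ifng cells lay above that of Tregs with intervals that do not overlap, although Tregs and Treg-associated cells held the highest levels in the library labelled WT. Other T cells had 39.5 and 222 CPM (log2 ratio 2.49), cycling T cells 35.7 and 117 CPM (1.72) and naive-like cells 14.1 and 45.4 CPM (1.68). Il17 cells had 3 UMIs (10.7 CPM) in the library labelled WT against 90.9 CPM in the library labelled dKO, a log2 ratio of 3.08 (1.46 to 5.41).

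The order of the T cell classes for *Rgs16* differed between the libraries at both ends. Tregs were highest in the library labelled WT, overlapping Treg-associated cells. In the library labelled dKO Treg-associated cells were highest at 373 CPM (357 to 389), apart from Tregs at 336 CPM (322 to 352). Il17 cells were lowest in the library labelled WT, overlapping naive-like cells, while naive-like cells were lowest in the library labelled dKO. Tregs were 7.86-fold over naive-like cells in the library labelled WT against 7.42-fold in the library labelled dKO. Il17 cells were below Ifng cells in both libraries, with log2 ratios of −2.40 (−4.69 to −0.83) and −1.63 (−2.07 to −1.20). Tregs exceeded Ifng cells by a log2 ratio of 0.97 (0.60 to 1.32) in the library labelled WT, against 0.26 (0.10 to 0.43) in the library labelled dKO. Cycling T cells and other T cells had overlapping levels in the library labelled WT but stood apart in the library labelled dKO, where cycling cells were 1.89-fold lower.

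Outside T cells *Rgs16* was low, and T cell transcripts were also present there. The pDC-like cells had 10.3 and 23.0 CPM, or 21.7% and 8.30% of the level in T cells. *Cd3d*, *Cd3e* and *Cd3g* in the same cells were at 9.56% to 10.7% and at 6.44% to 6.85% of their T cell levels. C1q macrophage-like cells had 2 UMIs (8.26 CPM) and 45 UMIs (68.3 CPM) of *Rgs16*, or 17.4% and 24.7% of the T cell level, against 17.5% to 24.6% and 15.5% to 16.6% for the *Cd3* genes. The share of cells with an *Rgs16* UMI after thinning was 3.88% and 19.3% of T cells, at median depths of 1844 and 1412 UMIs, and 0.542% and 1.29% of pDC-like cells, at median depths of 1566 and 3017 UMIs. Unthinned shares of T cells were 7.36% and 27.4%. No *Rgs16* UMI was found among the 110200 UMIs of ILC3-like cells in the library labelled WT, which allows up to 33.5 CPM. The part of free RNA in the values outside T cells was not tested.

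*Rgs1*, the chemokine receptor regulator, was above 200 CPM in each class and differed more than 2-fold between the libraries in pDC-like cells. The pDC-like cells were at 753 CPM (724 to 782) in the library labelled WT against 274 CPM (265 to 283) in the library labelled dKO, a log2 ratio of −1.46 (−1.53 to −1.38). That was beyond 2-fold, as it was for 1.76% of the 8123 genes measured there in the lower direction, and 52 genes had a lower ratio. These levels were 59.8% and 29.4% of those in T cells. The *Cd3* genes in pDC-like cells were also relatively higher in the library labelled WT, at 9.56% to 10.7% against 6.44% to 6.85% of their T cell levels. The part of free RNA in the *Rgs1* values was not tested. Other myeloid-like cells had 862 and 412 CPM (log2 ratio −1.06), and C1q macrophage-like cells had 1449 and 1207 CPM (log2 ratio −0.26). Tregs had 992 CPM (928 to 1059) and 929 CPM (904 to 954), a log2 ratio of −0.10 (−0.20 to 0.01) whose interval spans 0. That ratio depended on the processing, at −0.32 with gates raised by 1 UMI, −0.33 in cells with TRA and TRB contigs, −0.30 with 1 cell per clonotype and 0.12 when each cell's own CPM was averaged. Treg-associated cells had 1375 and 1008 CPM (log2 ratio −0.45), Ifng cells 1715 and 1186 CPM (−0.53) and Il17 cells 1616 and 1252 CPM (−0.37). Naive-like cells had 485 and 318 CPM (−0.61), and cycling T cells 1312 and 624 CPM (−1.07). The low-ribosomal droplets, 70 and 60 cells, had 1104 and 381 CPM, a log2 ratio of −1.54 (−2.20 to −0.93).

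In both libraries *Rgs1* was lower in naive-like cells than in Ifng cells, by 3.54-fold and 3.72-fold. Ifng, Il17 and C1q macrophage-like cells were its highest classes in both libraries, and the intervals of neighbours among them overlapped. The share of T cells with an *Rgs1* UMI after thinning was 48.7% (47.4% to 49.95%) and 48.2% (47.2% to 49.3%), which overlap, while the CPM of *Rgs1* in T cells was lower in the library labelled dKO. Unthinned shares were 61.1% and 59.0%. In pDC-like cells the summed level of 15 immediate early genes, which respond quickly to stimulation, was also lower, at 6671 and 4098 CPM. Across tertiles of pDC-like cells by that list, *Rgs1* was at 442, 722 and 880 CPM in the library labelled WT against 151, 225 and 418 CPM in the library labelled dKO. The tertiles were cut within each library and are not matched between them, with a median of 3, 6 and 11 UMIs of the list per thinned cell against 1, 4 and 8. The part of the immediate early genes in the difference was not tested.

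*Rgs2*, the member with a preference for G alpha q, was highest among T cells in Tregs, where the intervals of the libraries overlapped. Tregs were at 370 CPM (331 to 412) in the library labelled WT against 364 CPM (349 to 380) in the library labelled dKO, a log2 ratio of −0.02 (−0.19 to 0.15). Gates raised by 1 UMI gave −0.33 and averaging each cell's own CPM gave 0.17, both outside that interval. Treg-associated cells had 278 and 333 CPM (log2 ratio 0.26, 0.10 to 0.42), and Ifng cells 226 and 172 CPM (log2 ratio −0.39). Il17 cells had 282 and 225 CPM (log2 ratio −0.33), naive-like cells 136 and 123 CPM, cycling T cells 161 and 157 CPM and other T cells 231 and 224 CPM. The intervals of the libraries overlapped in each of these last 4 classes. The low-ribosomal droplets had 124 and 259 CPM from 19 and 17 UMIs, a log2 ratio of 1.06 (0.03 to 2.08). Tregs were 1.64-fold over Ifng cells in the library labelled WT against 2.12-fold in the library labelled dKO. Outside T cells the pDC-like cells had 131 and 85.2 CPM (log2 ratio −0.62), other myeloid-like cells 373 and 171 CPM (log2 ratio −1.13) and C1q macrophage-like cells 281 and 295 CPM.

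The makeup of the T cells, over which *Rgs2* was higher in the library labelled dKO, differed as well. Tregs were 5.35% of T cells in the library labelled WT against 26.8% in the library labelled dKO, and Treg-associated cells were 7.60% and 31.6%. With each T cell class given equal weight, the log2 ratio of *Rgs2* over T cells was 0.04 in place of 0.39. The low-ribosomal droplets, 70 and 60 cells with *Rgs2* at 124 and 259 CPM, weighed as much there as any other class. A weighting without these droplets was not run. With equal weight for each class, droplets included, *Rgs10* remained at −1.74, *Rgs16* at 2.11 and *Rgs1* at −0.57. These values were added after the data were seen, and the part of the makeup in the *Rgs2* difference was not tested further.

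Tregs were then split into tertiles by their UMIs of the immediate early genes, each cell thinned to 1000 UMIs. The summed list was at 9204 CPM in Tregs of the library labelled WT and 6528 CPM in Tregs of the library labelled dKO. *Rgs2* was at 283, 308 and 427 CPM from the low to the high tertile in the library labelled WT, against 280, 358 and 501 CPM in the library labelled dKO. *Rgs16* was at 78.7, 143 and 233 CPM and at 284, 358 and 496 CPM. In the library labelled dKO the intervals of the low and the high tertile lay apart for each. They lay apart for *Rgs16* and overlapped for *Rgs2* in the library labelled WT, at 199 to 392 and 310.4 to 573 CPM. *Rgs1* stayed between 934 and 1039 CPM and between 982 and 999 CPM, with overlapping intervals. *Rgs10* was at 299, 286 and 175 CPM in the library labelled WT and at 41.8, 54.5 and 48.2 CPM in the library labelled dKO. These tertiles too were cut within each library, with a median of 5, 9 and 14 UMIs of the list against 3, 6 and 12, so that those of the same name are not matched. *Rgs2* also rose in Treg-associated cells, from 238 to 447 CPM in the library labelled WT and from 283 to 442 CPM in the library labelled dKO. Other T cells had *Rgs2* from 148 to 315 CPM and from 150 to 272 CPM. The low and high intervals lay apart in each. *Rgs16* in Treg-associated cells went from 103 to 184 CPM, with overlapping intervals, and from 354 to 436 CPM, apart. In naive-like cells the *Rgs2* intervals overlapped in both libraries. Some other patterns differed from those in Tregs. In other T cells *Rgs1* went from 1056 to 1804 CPM in the library labelled WT and from 1214 to 941 CPM in the library labelled dKO. In Ifng cells *Rgs16* was at 60.4, 48.3 and 54.2 CPM and at 292, 202 and 263 CPM, with overlapping intervals in each library.

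**Figure D4:**
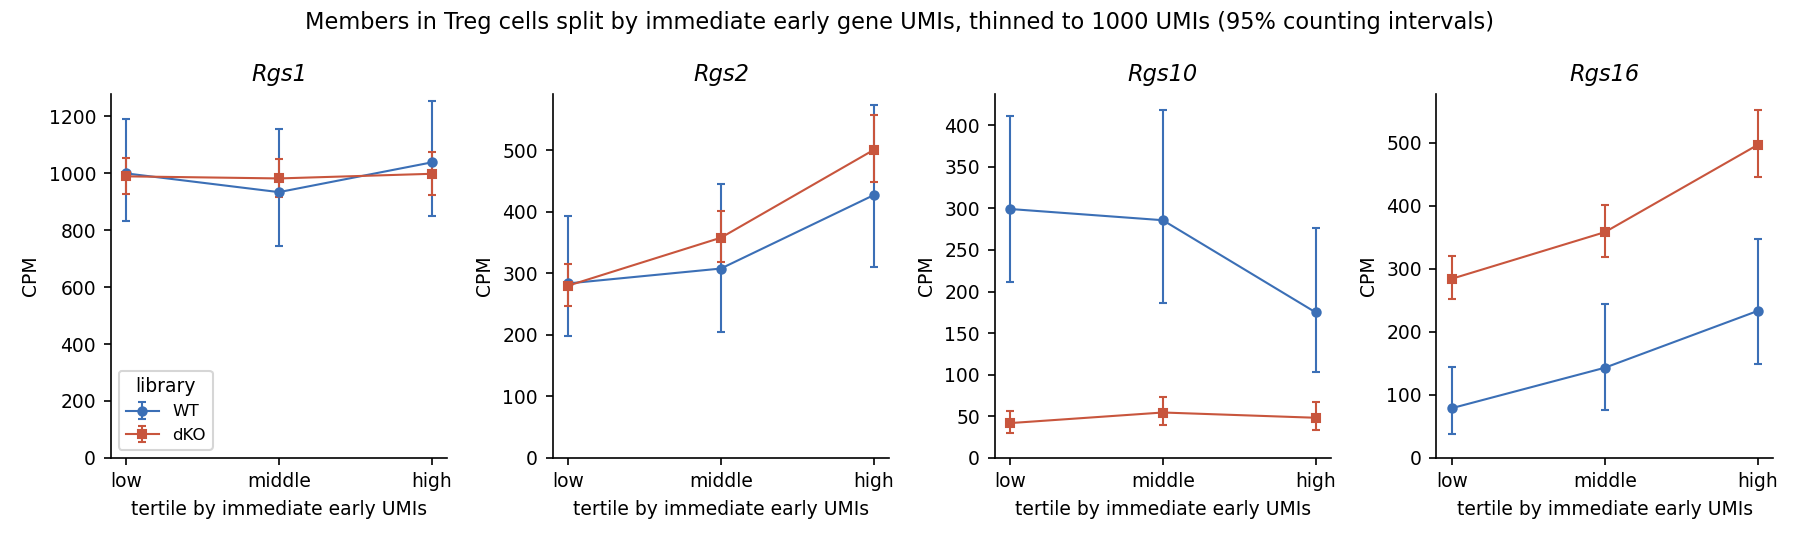
Level of each member in CPM in Tregs, split within each library into tertiles by UMIs of 15 immediate early genes after thinning to 1000 UMIs, with 95% exact Poisson intervals. Circles are the library labelled WT and squares the library labelled dKO. *Rgs2* and *Rgs16* rise from the low to the high tertile in the library labelled dKO, from 280 to 501 CPM and from 284 to 496 CPM, and *Rgs10* stays at 41.8 to 54.5 CPM.

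Clonotypes, cells that share their T cell receptor chains, gave a view of the members within single lineages. Of clonotypes with at least 20 cells there were 9 in the library labelled WT (386 cells) and 15 in the library labelled dKO (933 cells). *Rgs10* ranged from 54.6 to 229 CPM over the 9 clonotypes, with a median of 164 CPM, and from 0 to 58.9 CPM over the 15, with a median of 18.2 CPM. The ranges overlapped, but 13 of the 15 lay below the lowest of the 9, and 8 of the 9 above the highest of the 15. It was at 0 in 6 of the 15, which together held 176 cells and 385281 UMIs. Single clonotypes held few *Rgs10* UMIs, so their intervals were wide and some overlapped between the libraries. The lowest of the 9 rested on 2 UMIs (6.62 to 197 CPM), and the upper limits of the clonotypes at 0 ran from 22.3 to 126 CPM. *Rgs16* ranged from 0 to 98.7 CPM (median 39.2 CPM) over the 9 and from 66.1 to 490 CPM (median 327 CPM) over the 15, of which 14 lay above the highest of the 9.

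The largest clonotype of the library labelled WT had 88 cells, with *Rgs10* at 140 and *Rgs16* at 67.9 CPM. That of the library labelled dKO had 398 cells, 78.4% of them Treg or Treg-associated, with *Rgs10* at 27.1 and *Rgs16* at 391 CPM. The classes differ between these clonotypes, since at most 12.5% of the cells of any of the 9 were Treg or Treg-associated. Within other T cells alone, clonotypes of at least 20 cells had *Rgs10* at 192 CPM (145 to 248) and 18.6 CPM (3.83 to 54.2), the latter from 3 UMIs. *Rgs16* in them was at 40.3 CPM (20.8 to 70.4) and 507 CPM (403 to 630). *Rgs1* stepped down with clonotype size in both libraries: T cells in clonotypes of at least 20 cells, of 2 to 19 cells and of 1 cell had 1899.7, 1736 and 926 CPM in the library labelled WT against 1257, 947 and 701 CPM in the library labelled dKO. The same held within Tregs of the library labelled dKO, at 1165, 893 and 751 CPM. *Rgs2* was at 257, 226 and 196 CPM and at 296, 264 and 247 CPM. Within other T cells of the library labelled dKO it was at 445 CPM (349 to 561) in clonotypes of at least 20 cells, apart from the 218 CPM (165 to 283) and 224 CPM (192 to 260) of the smaller sizes. No such step was seen for *Rgs2* in Tregs of that library (347, 314 and 345 CPM) or in its Ifng cells (179, 183 and 154 CPM). The intervals overlapped within each of these 2 classes.

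**Figure D5:**
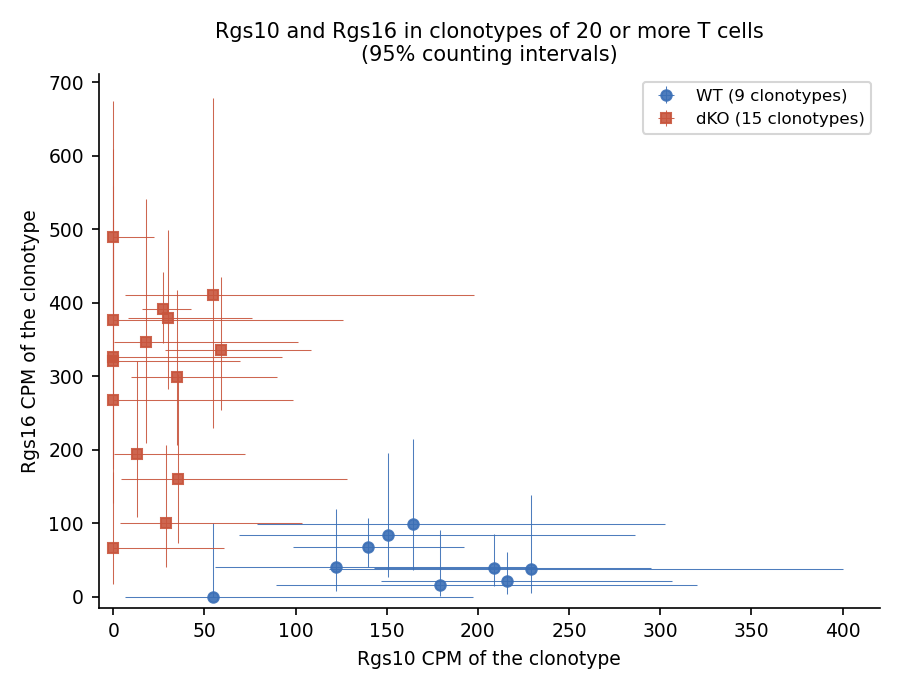
*Rgs10* (horizontal axis) against *Rgs16* (vertical axis) in CPM, 1 point for each clonotype of at least 20 cells, 9 of the library labelled WT (circles) and 15 of the other library (squares), with 95% exact Poisson intervals. The median of *Rgs10* is 164 and 18.2 CPM and that of *Rgs16* 39.2 and 327 CPM.

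Members were seen together in some cells at this depth. In Tregs thinned to 1000 UMIs, the mean number of members with a UMI was 1.08 in the library labelled WT against 1.06 in the library labelled dKO. A pair of members had a UMI in 27.1% and 23.3% of these Tregs, 3 members in 4.05% and 5.07%, and all 4 in 0.623% and 0.161%. In naive-like cells 55.1% and 55.0% of cells had none of them. In pDC-like cells 39.0% and 52.7% had none. Among Tregs of the library labelled dKO, 29.6% (27.05% to 32.2%) of cells with an *Rgs1* UMI and 23.1% (20.8% to 25.6%) of cells without one had an *Rgs2* UMI. Among Tregs of the library labelled WT the shares were 26.2% and 26.8%, with overlapping intervals. For *Rgs10* in Tregs of the library labelled dKO they were 4.28% and 4.98%, with overlapping intervals. In naive-like cells of that library, 6.72% (2.95% to 12.8%) of cells with *Rgs1* and 20.2% (16.5% to 24.3%) without it had *Rgs10*. In naive-like cells of the library labelled WT these shares were 24.6% and 19.7%, with overlapping intervals.

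The pattern of each member over classes was compared with that of 6726 other genes. This used the Pearson correlation of log2(CPM + 10) over 23 profiles, each a class of at least 50 cells in a library. The profiles share 2 libraries and the correlations are descriptions. *Rgs16* was most like *Tigit* (r = 0.95), then *Nrn1*, *Pvrig*, *Neb* and *Gzmb* (0.91). Within the library labelled WT (12 profiles) and the library labelled dKO (11 profiles), r with *Tigit* was 0.85 and 0.96. *Rgs10* was most like *Hvcn1* (0.85), then *Filip1l*, *Evi2a* and *Mtss1* (0.76), and r with *Hvcn1* was 0.70 and 0.87 within the libraries. For *Filip1l* (0.84 over all profiles) and *Mtss1*, r was lower within the library labelled WT, at 0.44 and 0.45, than within the library labelled dKO, at 0.92 and 0.89. *Rgs2* was most like *Dusp1* (0.84, and 0.86 and 0.84 within the libraries), then *Ifrd1*, *Pim3*, *Pld3* and *Smpdl3a* (0.78). *Rgs1* was most like *Lpxn* (0.76, and 0.67 and 0.76 within the libraries), then *Il2*, *Arrb2*, *Susd3* and *Vasp* (0.70). Between members, *Rgs10* and *Rgs16* had r = −0.72 over all profiles, −0.05 within the library labelled WT against −0.84 within the library labelled dKO. The pooled value thus did not hold within the library labelled WT. The other pairs lay between −0.17 and 0.38 over all profiles, and they too differed within the libraries. *Rgs1* and *Rgs16* had r = 0.15 over all profiles but 0.54 and 0.52 within the libraries. *Rgs2* and *Rgs16* had −0.08 and 0.73, and *Rgs1* and *Rgs2* had 0.00087 and 0.67.

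Of the 17 other RGS genes listed, 3 had at least 10 CPM in T cells of a library. None of the 3 was lower or higher by 2-fold, against 2.86% and 3.82% of all genes, so that 0 of 3 says nothing about these genes. *Rgs3* was at 56.6 and 40.5 CPM (log2 ratio −0.48), *Rgs14* at 59.8 and 42.9 CPM (−0.48) and *Rgs19* at 74.9 and 56.6 CPM (−0.40). *Rgs9* reached 18.7 and 13.0 CPM in Tregs. *Rgs18* was at 94.7 and 40.7 CPM in pDC-like cells, where 2 of the 4 measured family genes outside the members were 2-fold lower, against 1.76% of all genes.

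The partners of RGS proteins were described by lists in T cells, counting the genes of each with at least 10 CPM in 1 of the libraries, against a median log2 ratio of −0.01 over all genes measured. Of 8 G alpha subunits and of 6 receptor kinases and arrestins, 0 differed 2-fold, against 2.86% of all genes lower and 3.82% higher, and from so few genes nothing is read. Of 8 G beta and gamma subunits, 1 was higher, against 3.82% of all genes. It was *Gnb4*, at 8.84 and 35.4 CPM (log2 ratio 2.00). Of 27 G protein-coupled receptors, 5 were 2-fold higher and 3 lower in the library labelled dKO, against 3.82% and 2.86% of all genes. Within Tregs 3 of 26 were higher and 5 lower, against 4.27% and 4.92% of all genes, and the difference from all T cells was not tested. The chemokine receptors *Ccr9* (3.51 and 36.3 CPM), *Ccr1* (3.12 and 17.7 CPM) and *Ccr8* (149 and 421 CPM) were among the higher ones, as was the leukotriene B4 receptor *Ltb4r1* (27.6 and 67.9 CPM), and *Ccr4* was lower (103 and 44.5 CPM). Of 13 effectors, 2 were lower, against 2.86% of all genes. These were *Pik3r5*, a regulatory subunit of the phosphoinositide 3-kinase that answers G beta-gamma, at 115 and 51.2 CPM, and *Rap1gap2* at 27.2 and 13.0 CPM. Of 12 measured immediate early genes, 1 was lower, against the same 2.86%. It was *Btg2*, at 732 and 286 CPM (log2 ratio −1.35).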

How the data were processed

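The authors deposited, for each of the 2 scRNA-seq libraries, a table of raw UMI counts per gene and cell for droplets called as cells by Cell Ranger 7.0.1 on mm10 (per the file headers and the submitters' processing notes), with no normalization. The deposited T cell receptor tables list contigs with UMI counts, and clonotypes were taken from them. Only cells above 200 detected genes and below 5% mitochondrial UMIs were kept, 10556 of 10602 in the library labelled WT and 17462 of 17645 in the library labelled dKO. A count of 3 UMIs is 0.128 and 0.0794 CPM over all cells.

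The members, gene lists and gates were chosen with earlier results of these data known. Cells with UMIs of both a T cell and another lineage (391 and 519) and cells in no gate (1562 and 1634) entered no class, and classes under 50 cells are not described. Doublets were kept in the reported values and left out in an alternative, in which 155 and 87 cells had 2 or more TRB chains. CPM were summed over cells, with exact Poisson intervals. Log2 ratios have exact conditional binomial intervals and shares Clopper-Pearson intervals, all at 95%, and cover counting error only, since UMIs of a pooled library are not independent animals. No count test was run, as each genotype has 1 library. Named were the 4 members, RGS genes with at least 10 CPM in both libraries, list members past 2-fold in all T cells (at most 6 a list, by size), the 5 genes most like each member, and *Nr4a1* and *Nr4a2*. The most alike genes had at least 50 CPM in a profile. Some genes that this rule names are not reported here. Alternatives were the cell filter, TMM scaling, averaging of each cell's own CPM, doublets, gates, 1 cell per clonotype, the T cell gate, the thinning depth and the low-value filter. Python 3.11.15, numpy 2.4.6, scipy 1.17.1, pandas 2.3.3 and matplotlib 3.10.9 were used, and edgeR 4.0.16 in R 4.3.3 for TMM factors alone. Interval code was tested on simulated data.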

Additional observations from a re-analysis of the deposited data

Results flagged for a closer look

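*Rgs2* had ratios of opposite direction in different classes. Its log2 ratio of the library labelled dKO over the library labelled WT was 0.26 in Treg-associated cells, 1.06 in low-ribosomal T cell droplets, −0.39 in Ifng cells, −0.62 in pDC-like cells and −1.13 in other myeloid-like cells, each with an interval that leaves out 0. With 1 library per genotype the difference between these classes was not tested.

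Cells that no gate took also held member transcripts. In the library labelled dKO *Rgs2* was at 269 CPM in them, against 207 CPM in the library labelled WT. *Rgs16* was at 249 CPM in them in the library labelled dKO, against 56.0 CPM in the library labelled WT. The other members were lower there in the library labelled dKO. *Rgs10* was at 56.4 CPM against 164 CPM in the library labelled WT, a log2 ratio of −1.54 (−1.87 to −1.21). *Rgs1* was at 890 CPM against 1105 CPM in the library labelled WT.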

How the results depend on the processing

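Each genotype is 1 library of pooled mice, so mouse, library and genotype cannot be told apart. No paired analysis was possible because each group has 1 library. Of 72 alternative values of the 8 log2 ratios over T cells and Tregs, 47 stayed within the reported interval, 68 kept the sign, and the sign changed only for *Rgs1* and *Rgs2* in Tregs, whose intervals span 0. *Rgs10* ranged from −2.08 to −1.74 in T cells and from −2.54 to −2.04 in Tregs, and *Rgs16* from 2.11 to 2.60 and from 1.24 to 1.67.

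Averaging each cell's own CPM gave *Rgs1* −0.31 and *Rgs2* 0.54 in T cells, and 0.12 and 0.17 in Tregs. Cells with TRA and TRB contigs gave *Rgs1* −0.60, *Rgs2* 0.28 and *Rgs16* 2.19 in T cells, and *Rgs1* −0.33 and *Rgs10* −2.04 in Tregs. With 1 cell per clonotype, *Rgs1* was −0.49 and *Rgs16* 2.14 in T cells, and *Rgs1* −0.30 in Tregs. Gates raised by 1 UMI gave *Rgs1* −0.32, *Rgs2* −0.33 and *Rgs16* 1.24 in Tregs. *Rgs1* in T cells was −0.39 with TMM factors and −0.40 without doublets. Further alternatives were chosen after seeing the data. Equal weight for each T cell class, the low-ribosomal droplets included, gave *Rgs1* −0.57, *Rgs2* 0.039, *Rgs10* −1.74 and *Rgs16* 2.11. Leaving out naive-like cells gave *Rgs1* −0.59, *Rgs2* 0.31, *Rgs10* −2.08 and *Rgs16* 2.38. The cause of these shifts was not tested.

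With a minimum of 50 CPM, or none, the genes past 2-fold lower in T cells were 98 or 2968 in place of 238, and higher 140 or 3299 in place of 317. In Tregs they were 123 or 2245 in place of 411, and 119 or 4202 in place of 357. Of 200 shares at another depth, 2000 UMIs or no thinning, 162 moved beyond their interval. With more UMIs per cell a gene is mostly found in more cells, so this count says nothing of the contrasts between the libraries.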
